A study of Rattus norvegicus with 8 samples.

Results

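The transforming growth factor beta (TGF-beta) genes described here were 10 genes fixed by symbol, out of 15590 genes with a measured level in rat Achilles tendon. They were the 3 ligand genes Tgfb1, Tgfb2 and Tgfb3, the latent binding protein genes Ltbp1 and Ltbp2, the receptor genes Tgfbr1, Tgfbr2 and Tgfbr3, and the feedback genes Smad7 and Skil. All 10 passed the filter on low values that left 13863 genes for the test. The RNA-seq data came from 8 right-leg Achilles tendons of wild-type male SD rats aged 8 to 10 weeks, 4 from a normal control group (NC) and 4 from rats killed immediately after running (0 h p.r., where p.r. stands for post-running). Runners were set to 1 h of uphill treadmill running at 20 m/min on a 10° incline, with air puffs, and weak electric stimulation for rats that left the belt, and NC rats kept normal cage activity. The labels have both groups killed immediately and the methods have NC killed together with a group rested for 12 h, so running, its prompts and any difference in the time of killing cannot be told apart. The comparison asks which of these mRNAs differed at the end of a single run. No source used here says that tendons were pooled. Levels are given as FPKM, a count of sequenced fragments corrected for gene length and scaled by the authors between libraries.

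TGF-beta is secreted in a latent form, folded inside its own propeptide and tethered to the matrix by latent TGF-beta binding proteins, from which integrins, proteases or thrombospondin 1 can release it. Active ligand binds the type II receptor, which switches on the type I receptor, and this phosphorylates Smad2 and Smad3 so that they enter the nucleus with Smad4. The inhibitory Smad7 acts at the receptor and SnoN, the product of Skil, acts on the Smad complex in the nucleus, and both are themselves induced by the pathway. In tendon the pathway is known for its part in forming and maintaining tendon cells and for its response to mechanical load.

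Libraries held 11350560 to 17897056 reads, recovered from the FPKM steps, and a gene had a median of 218 reads per library. Mitochondrial genes took 31.1% of summed FPKM in NC replicate 2 against 16.3% to 21.9% in the other libraries. That library also had the fewest reads and the largest summed FPKM, 900138 against 554130 to 746030 in the others. NC replicate 2 was the lowest NC library for 8 of the 10 genes, Skil, Smad7, Tgfb1 and Tgfbr1 among them. The like share over all genes was not computed. All 8 tenocyte markers were present, with summed levels of 3455 to 6580 FPKM in NC and 3721 to 7114 FPKM at 0 h p.r., and none passed the test. Markers of tissue around the tendon were present too and were not even: 6 muscle genes summed to 973 to 33250 FPKM at 0 h p.r. and 3397 to 6576 FPKM in NC. The 8 adipocyte markers summed to 3131 to 6333 FPKM in NC and 1051 to 2305 FPKM at 0 h p.r., with 6 of the 8 lower by the test. The 6 bone markers summed to 14.6 to 54.7 FPKM in NC and 53.3 to 185 FPKM at 0 h p.r., with 1 of the 5 tested higher. The 7 cartilage markers summed to 19.0 to 105 FPKM in NC and 112 to 419 FPKM at 0 h p.r., with 0 of the 6 tested past the threshold, and their mean log2 level differed by 1.49 with overlap, beside 1.499 for bone without overlap. Both neutrophil markers measured passed the test in opposite directions at low depth, S100a9 higher (log2 fold change 1.23, limma adjusted p = 0.0192, 1 to 15 reads) and Mpo lower (-1.45, adjusted p = 0.0146, 9 to 156 reads). The part of these shifts in the results was not tested. In such bulk samples, fewer cells of a type and less RNA per cell cannot be told apart.

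Skil was the only one of the 10 genes that changed by the test. It rose 2.40-fold, while Smad7, Tgfb1 and Tgfbr1 lay higher in all 4 runners than in every NC tendon without passing the test. By limma, 1 of the 10 genes had an adjusted p under 0.05, beside 5.72% of all 13863 tested genes in either direction and 3.49% in the higher direction. The same gene passed both the adjusted p and a fold change of 2, beside 1.80% of tested genes that did so in the higher direction. The 0 h p.r. values stood above all NC values for 4 of the 10 genes, beside 8.15% of tested genes, and below all NC values for 0 of the 10, beside 7.47%. Over the 10 genes the median log2 fold change was -0.03, beside a median of 0.00 over all tested genes (-0.0014 before rounding), since 4 genes had a higher mean at 0 h p.r. and 6 a lower one.

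**Figure D1:**
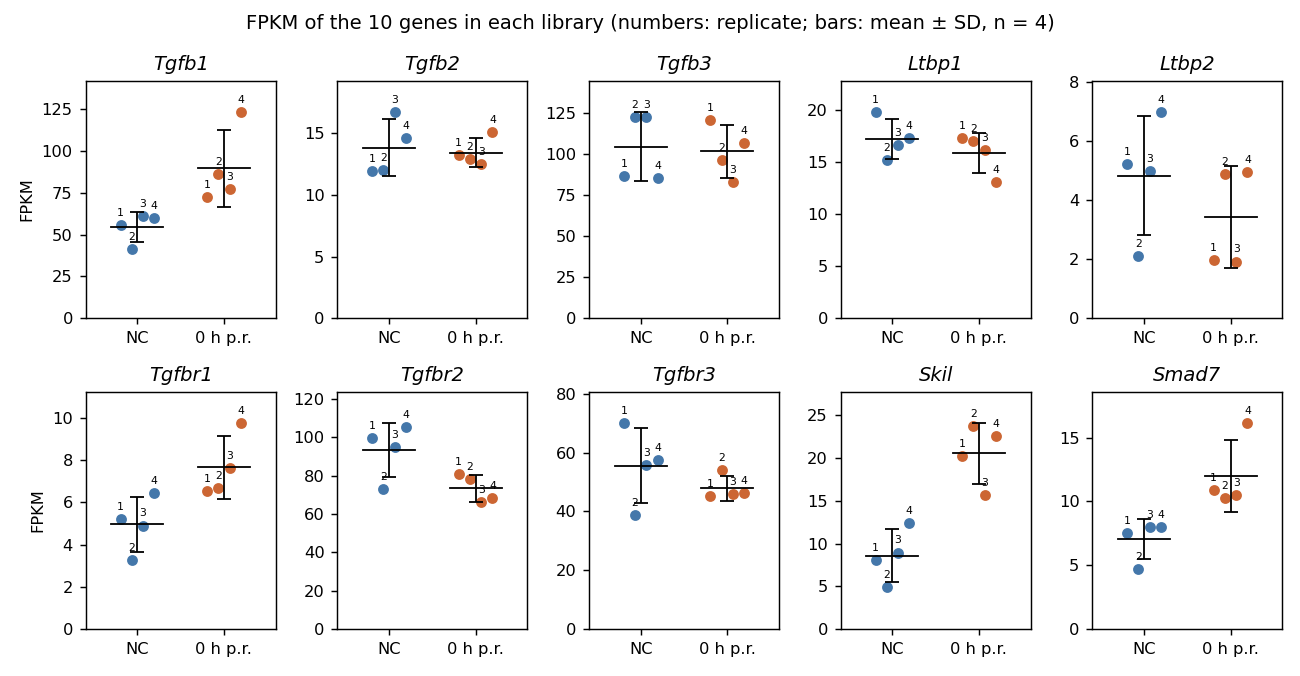
FPKM (vertical axes, each from 0) of the 10 genes in the NC and 0 h p.r. libraries. Points are single libraries numbered by replicate, and lines and bars are the group mean ± SD (n = 4). The groups are apart for Tgfb1, Tgfbr1, Skil and Smad7, and overlap for the other 6 genes.

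The feedback genes held the one member that passed the test. SnoN, encoded by Skil, is a corepressor that holds Smad complexes off their targets and is degraded when the pathway is switched on. Skil measured 8.10, 4.91, 8.95 and 12.4 FPKM in NC replicates 1 to 4 and 20.2, 23.8, 15.7 and 22.6 FPKM in the corresponding 0 h p.r. libraries. Each runner exceeded each control. The gap from the highest NC value of 12.4 to the lowest 0 h p.r. value of 15.7 FPKM was narrow beside the NC range of 4.91 to 12.4 FPKM. The means were 8.59 ± 3.08 FPKM (SD, n = 4) and 20.6 ± 3.59 FPKM, which is 1.26 on the log2 scale (standard error 0.25, limma adjusted p = 0.0256). The 95% interval of the fold ran from 1.62 to 3.56. Leaving out 1 library at a time, the adjusted p lay between 0.0193 and 0.0903. It exceeded 0.05 without NC replicate 1 (0.0784), NC replicate 3 (0.0575), 0 h p.r. replicate 1 (0.0603) and 0 h p.r. replicate 2 (0.0903), while the log2 fold change stayed between 1.04 and 1.45.

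The upstream sequence of Skil is shown because it was the gene that changed. It comes from the RefSeq promoter windows (build GRCr8), which matched all 10 genes, and positions count back from the annotated start, with -1 as the base just before it. The longer stretch spans positions -250 to -92, upstream of the whole annotated gene, at chr2:114203664-114203822 on the minus strand. The short stretch spans -63 to -36 at chr2:114203608-114203635. It lies inside the annotated gene, which reaches upstream of the start used for the window. A stretch of Ltbp1, at chr6:26177392-26177419 on the minus strand, is set beside it as the other member with the same motif. Capitals mark the Smad box CAGAC, or GTCTG read from the other strand, and the cyclic AMP response element TGACGTCA.
Skil promoter: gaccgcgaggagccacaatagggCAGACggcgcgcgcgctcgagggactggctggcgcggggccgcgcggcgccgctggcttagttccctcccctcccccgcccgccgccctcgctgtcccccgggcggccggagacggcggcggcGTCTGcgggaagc
Skil CRE: gcgggccgggTGACGTCAgaggctgtgt
Ltbp1 CRE: atttgctgccTGACGTCAcGTCTGccgc

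In the 250 bases before the start used, Skil held 2 Smad boxes, beginning at -227 and -104, upstream of the annotated gene. It also held 1 cyclic AMP response element beginning at -53, inside the annotated gene. Smad boxes stood in 3 of the 10 windows (Skil, Ltbp1 and Ltbp2), beside 42.9% of 33469 RefSeq windows, and the cyclic AMP response element in 2 of the 10 (Skil and Ltbp1), beside 1.59%. The AP-1 motif TGANTCA was in none of the 10 windows and in 6.34% of all, and the palindromic Smad element GTCTAGAC in none of the 10 and in 0.173% of all. All 4 motifs were searched on both strands. GC content averaged 52.2% over all windows and ran from 48.8% (Tgfb3) to 78% (Smad7) in the 10, with 77.2% in Skil and 56.8% in Ltbp1. The shares over all windows were not matched for it. Ltbp1, which did not pass the test, shared both motifs with Skil. A match of letters describes the window only.

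Smad7, the inhibitory Smad that blocks the type I receptor and recruits ubiquitin ligases to it, measured 7.50, 4.70, 7.99 and 7.95 FPKM in NC and 10.9, 10.3, 10.5 and 16.2 FPKM at 0 h p.r. The groups were apart, with 3 runners close together near 10 to 11 FPKM and replicate 4 well above them. That library, the highest runner for Tgfb1 and Tgfbr1 too, had the highest summed cartilage (419 FPKM) and bone (185 FPKM) markers and the lowest muscle markers (973 FPKM) of the 8, and their part in its values was not tested. The mean went from 7.04 ± 1.57 to 11.96 ± 2.81 FPKM (SD, n = 4), a log2 difference of 0.73 (standard error 0.21) that missed the threshold with a limma adjusted p of 0.0736. The adjusted p stayed above 0.05 whichever library was left out (0.0917 to 0.146). Within a library, Skil stood 0.23 ± 0.26 above Smad7 on the log2 scale in NC and 0.77 ± 0.32 above it at 0 h p.r., and this log2 ratio overlapped between groups (difference 0.53, exact permutation p = 0.0857, adjusted p = 0.137 over 8 ratios).

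Among the ligands, Tgfb1, the isoform stored in platelets and made by many cell types, was the one with a higher mean after running. Its levels were 55.9, 41.5, 61.1 and 59.7 FPKM in NC and 72.6, 86.0, 77.3 and 123 FPKM at 0 h p.r. All 4 runners lay above the highest NC tendon, and 0 h p.r. replicate 4 lay far above the other 3. The means were 54.6 ± 8.97 and 89.8 ± 23.0 FPKM (SD, n = 4), a log2 difference of 0.70 (standard error 0.19, 95% interval of the fold 1.198 to 2.20) with a limma adjusted p of 0.0688. Leaving out each library gave adjusted p-values from 0.0761 to 0.160. Markers of platelets overlapped between the groups, at a summed 29.5 to 50.6 FPKM for the 3 genes present in NC and 20.6 to 49.6 FPKM at 0 h p.r.

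Tgfb3, an isoform linked to tendon development, was the most abundant ligand per length in NC. It measured 86.6, 123, 123 and 85.4 FPKM in NC and 120.4, 96.2, 82.6 and 107 FPKM at 0 h p.r. The NC libraries fell into a higher and a lower pair. The runners spread across most of that range, with 0 h p.r. replicate 3 at 82.6 FPKM just below it. The log2 difference was -0.03, with a 95% interval of -0.43 to 0.37 and a limma adjusted p of 0.945. Tgfb2, the isoform that depends most on the coreceptor for receptor binding, measured 11.9, 12.02, 16.7 and 14.6 FPKM in NC and 13.2, 12.9, 12.5 and 15.1 FPKM at 0 h p.r., and the groups overlapped throughout. Its log2 difference was -0.03 as well, with a 95% interval of -0.34 to 0.28 and a limma adjusted p of 0.932.

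Tgfb1 also took a larger mean share of the ligand mRNAs after the run, with overlap between groups. Tgfb1 made up 31.9 ± 6.32% of the summed FPKM of the 3 ligands in NC and 43.6 ± 6.25% at 0 h p.r. (SD, n = 4), Tgfb3 60.1 ± 7.11% and 49.8 ± 6.25%, and Tgfb2 8.01 ± 0.979% and 6.61 ± 0.465%. The Tgfb1 share ranged from 23.6% to 37.4% in NC and from 35.2% to 50.3% at 0 h p.r., so the shares overlapped at 0 h p.r. replicate 1. The log2 ratio of Tgfb1 to Tgfb2 lay between 1.75 and 2.18 in NC and between 2.42 and 2.99 at 0 h p.r., a difference of 0.73 with no overlap (exact permutation p = 0.0286, adjusted p = 0.0762). The smallest p that 4 against 4 libraries allow is 0.0286, and none of the 8 ratios examined among the members had an adjusted p under 0.05. With 3 ratios at that smallest p, the adjustment over 8 gave them 0.0762, so even groups fully apart could not pass here. Tgfb1 to Tgfb3 differed by 0.73 with overlap (exact permutation p = 0.0857, adjusted p = 0.137). The ratio of Tgfb2 to Tgfb3 had a mean difference of 0.00 on the log2 scale (0.0015 before rounding, exact permutation p = 1).

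**Figure D2:**
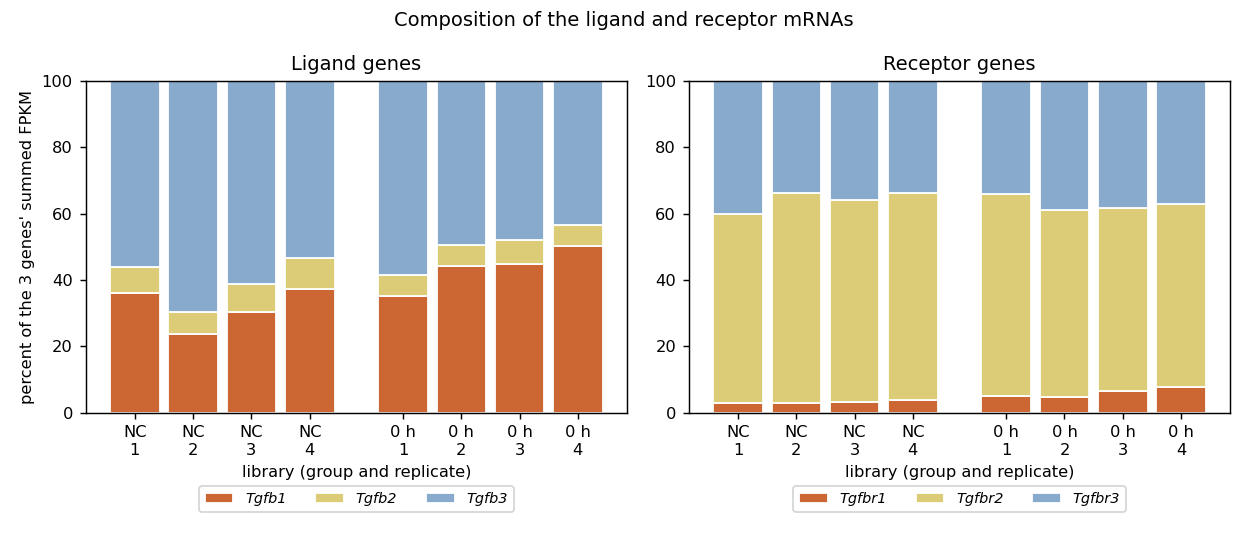
Stacked bars give, for each library, the percent of the summed FPKM of the 3 ligand genes (left) and of the 3 receptor genes (right) that each gene took. Tgfb1 averaged 31.9% in NC and 43.6% at 0 h p.r., and Tgfbr1 spanned 2.84% to 3.80% and 4.80% to 7.85%, without overlap.

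Neither gene of the latent binding proteins passed the test. Ltbp1, which links latent TGF-beta to fibrillin and fibronectin fibres, measured 19.8, 15.2, 16.6 and 17.3 FPKM in NC and 17.3, 17.0, 16.1 and 13.1 FPKM at 0 h p.r. Only 0 h p.r. replicate 4 was below the NC range, and it was also the highest runner for Tgfb1. The log2 difference was -0.12 with a 95% interval of -0.41 to 0.18 and a limma adjusted p of 0.664. Ltbp2, a family member that sits on elastic microfibrils and does not bind latent TGF-beta, measured 5.21, 2.12, 4.995 and 6.98 FPKM in NC and 1.97, 4.90, 1.92 and 4.95 FPKM at 0 h p.r. Runners 2 and 4 lay near the NC values and runners 1 and 3 below 2 FPKM, so the coefficient of variation reached 50.1% at 0 h p.r. and 41.7% in NC, the largest of the 10 genes in either group. The log2 difference was -0.45 (standard error 0.39, 95% interval -1.34 to 0.43, limma adjusted p = 0.557). The log2 ratio of Ltbp2 to Ltbp1 overlapped between groups (difference -0.33, exact permutation p = 0.486, adjusted p = 0.555).

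None of the 3 receptor genes passed the test, and the mean was higher for Tgfbr1 and lower for the others. Tgfbr1, the type I receptor kinase that phosphorylates Smad2 and Smad3, was the least abundant of the 3 and had a higher mean at 0 h p.r. It measured 5.198, 3.27, 4.90 and 6.45 FPKM in NC and 6.55, 6.68, 7.65 and 9.78 FPKM at 0 h p.r. The groups were apart, but by no more than 0 h p.r. replicate 1 at 6.55 against NC replicate 4 at 6.45 FPKM. The means were 4.95 ± 1.31 and 7.66 ± 1.49 FPKM (SD, n = 4), a log2 difference of 0.60 (standard error 0.21, 95% interval 0.13 to 1.06) with a limma adjusted p of 0.127.

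Tgfbr2, the type II receptor kinase that captures the ligand, measured 99.9, 73.0, 95.1 and 106 FPKM in NC and 80.7, 78.4, 66.1 and 68.5 FPKM at 0 h p.r. The other 3 NC tendons were above all runners, and NC replicate 2 lay among the runners. The log2 difference was -0.34 (standard error 0.14), with an unadjusted p of 0.0432 and an adjusted p of 0.207 by limma. Without NC replicate 2 the log2 difference was -0.45 and the adjusted p 0.0503, and over all libraries left out in turn the adjusted p ranged to 0.415. Tgfbr3, or betaglycan, a coreceptor without a kinase that presents ligand to the type II receptor, measured 70.2, 38.9, 55.8 and 57.5 FPKM in NC and 45.1, 54.0, 45.8 and 46.3 FPKM at 0 h p.r. Its NC values spanned the whole range of the runners. The log2 difference was -0.19, with a 95% interval of -0.58 to 0.20 and a limma adjusted p of 0.583.

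Set against each other within a library, Tgfbr1 stood higher relative to the other receptors in every runner. These ratios did not pass the adjustment, which even the smallest possible p could not pass here. The log2 ratio of Tgfbr1 to Tgfbr2 was -4.14, -4.28, -4.15 and -3.93 in NC and -3.53, -3.46, -3.03 and -2.75 at 0 h p.r. Every runner had a higher ratio than every NC tendon, and the difference of 0.94 corresponds to a 1.91-fold higher ratio (exact permutation p = 0.0286, adjusted p = 0.0762). Tgfbr1 to Tgfbr3 was 0.79 higher on the log2 scale, again without overlap (exact permutation p = 0.0286, adjusted p = 0.0762). Tgfbr3 to Tgfbr2 differed by 0.15 with overlap (exact permutation p = 0.286, adjusted p = 0.381). Tgfbr1 took 2.84% to 3.80% of the summed receptor FPKM in NC and 4.80% to 7.85% at 0 h p.r., and Tgfbr2 took 60.9 ± 2.79% and 56.9 ± 2.78% (SD, n = 4).

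**Figure D3:**
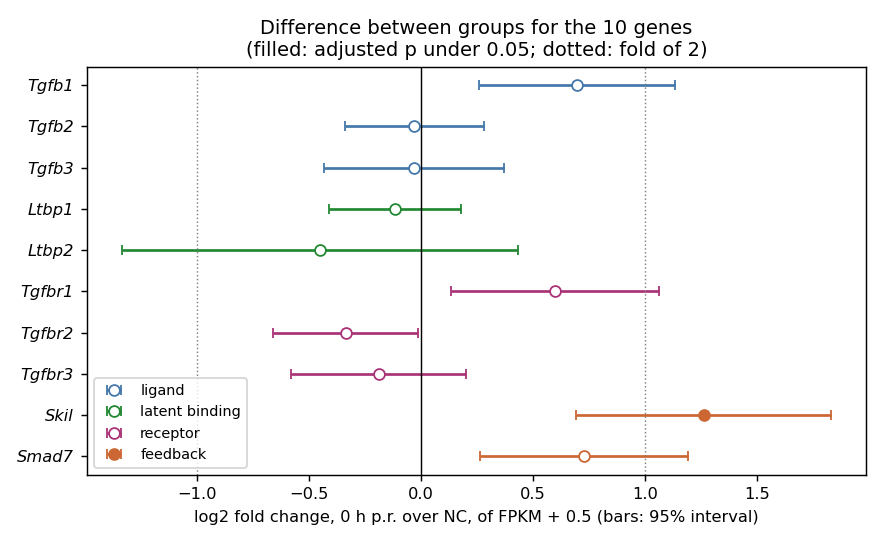
Log2 fold change of 0 h p.r. over NC for the 10 genes on the log2(FPKM + 0.5) scale, coloured by role, with the 95% interval from limma. Filled points passed an adjusted p of 0.05, which only Skil did at 1.26, and dotted lines mark a fold of 2.

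Placed in order of mean level per length, the 10 genes spanned from Tgfb3 at 104 FPKM to Ltbp2 at 4.83 FPKM in NC. In NC, Tgfb3 overlapped in range with Tgfbr2, and the step from Tgfbr2 to Tgfbr3 was free of overlap, as was the step from Tgfb1 at 54.6 to Ltbp1 at 17.2 FPKM. All neighbours from Ltbp1 down to Ltbp2 overlapped in NC. At 0 h p.r. the order was Tgfb3, Tgfb1, Tgfbr2, Tgfbr3, Skil, Ltbp1, Tgfb2, Smad7, Tgfbr1 and Ltbp2. There, Tgfb3 overlapped with Tgfb1 and Tgfb1 with Tgfbr2, the steps around Tgfbr3 and around Tgfbr1 were free of overlap, and Skil, which stood 7th of the 10 in NC, stood 5th with a range that overlapped that of Ltbp1.

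The count of changed genes among the 10 depended on single libraries. It went from 1 to 0 without NC replicate 1 or 3, and without 0 h p.r. replicate 1 or 2. Without any other single library it stayed at 1. With NC replicate 2 left out, the library with the high mitochondrial share, the log2 differences were 1.04 for Skil, 0.57 for Tgfb1, 0.56 for Smad7 and 0.43 for Tgfbr1, and the limma adjusted p for Skil was 0.0304. With both NC replicate 2 and 0 h p.r. replicate 1 left out, the latter the library richest in muscle markers, Skil had a log2 difference of 1.04 and an adjusted p of 0.0644, and 0 of the 10 genes passed. That setting was chosen after the data had been seen.

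**Figure D4:**
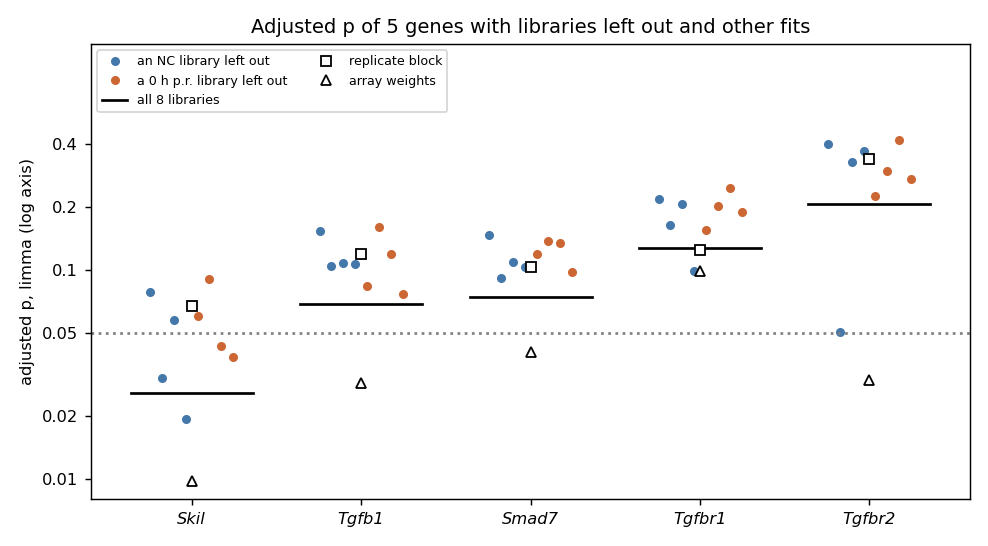
Adjusted p from limma (log axis) of the 5 of 10 genes with an unadjusted p under 0.05 (22.6% of all tested genes), with all 8 libraries (line), with each library left out (points), with a replicate block (square) and with array weights (triangle). Skil lies between 0.0193 and 0.0903 with a library left out, and the dotted line marks 0.05.

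The 2 tested genes whose profiles over the 8 libraries were nearest to that of Skil were Plk3, a polo-like kinase of stress responses, and Siah2, a ubiquitin ligase of the hypoxia response. The root-mean-square difference of their centred log2 profiles from Skil was 0.167 and 0.174, the smallest among 13853 candidates. Plk3 measured 5.04, 3.63, 4.62 and 7.29 FPKM in NC and 14.2, 18.5, 10.3 and 13.9 FPKM at 0 h p.r. It had the lowest NC value in replicate 2 and the highest runner in replicate 2, as Skil did. The log2 fold change of Plk3 was 1.39 (limma adjusted p = 0.0115) and that of Siah2 1.25 (limma adjusted p = 0.00950), both higher without overlap. Since they were picked for a profile like that of Skil, the selection fixed this direction and separation, and the values are a description over 8 libraries.

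Of 73 further pathway genes listed by function, 72 were measured and 69 tested, and 16 of the 69 passed an adjusted p of 0.05, 12 higher and 4 lower, which is 23.2% beside 5.72% of all tested genes. Their median log2 fold change was 0.23. The lists were made with earlier results of these data known, and no test was run on a list as a whole. The 16 genes became 6 without NC replicate 1 and 8 without NC replicate 3, and they became 9, 7 and 8 when 0 h p.r. replicate 1, 2 or 3 in turn was omitted. All genes past the adjusted p, 793 in the full fit, fell in the same fits. They became 280 and 366 without these NC libraries and 357, 251 and 271 without these 0 h p.r. libraries. Without 0 h p.r. replicate 4 the counts were 19 listed genes and 1178 of all genes. Smad3, Junb, Bhlhe40 and Acvr1c were the 4 that passed with any single library left out.

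Among 12 tested genes that store or release latent TGF-beta, 2 rose and 0 fell, beside 484 higher and 309 lower of all 13863 tested genes. Thbs1, which encodes the matrix protein thrombospondin 1, an activator of latent TGF-beta, measured 48.8, 37.6, 69.7 and 74.0 FPKM in NC and 125, 238, 129.8 and 208 FPKM at 0 h p.r. The groups were well apart, with a 3.01-fold rise (log2 1.59, standard error 0.28, limma adjusted p = 0.0159). Lrrc32, which encodes GARP, an anchor that holds latent TGF-beta at the cell surface, rose from 33.6 ± 6.02 to 74.9 ± 16.0 FPKM (SD, n = 4; log2 1.13, limma adjusted p = 0.0131). Thbs1 and Lrrc32 each did not pass in 3 of 19 alternatives. Beside 309 lower of all 13863 tested genes, 1 of 8 coreceptors and receptor partners fell and the other 7 did not pass. That was Nrp1, neuropilin 1, a coreceptor for semaphorins and VEGF that also binds TGF-beta, which went from 35.7 ± 5.16 to 24.2 ± 1.99 FPKM (a log2 difference of -0.54, limma adjusted p = 0.0482). Nrp1 was close to the threshold and did not pass in 11 of 19 alternatives, among them voom on recovered reads (adjusted p = 0.0537), quantile normalisation (0.0535) and the fit without a filter (0.0510).

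Of the 6 tested Smads and partners, Smad3 alone passed (16.7%, beside 5.72% of all tested genes). The signal transducer Smad3 measured 11.6, 10.9, 15.5 and 14.5 FPKM in NC and 30.7, 29.6, 25.7 and 27.0 FPKM at 0 h p.r. The 4 runners were tightly grouped well above the highest NC tendon, and the rise was 2.13-fold (log2 1.09, standard error 0.14, limma adjusted p = 0.00427). The list of 11 negative regulators beside Smad7 and Skil held 2 that rose (18.2%, beside 3.49% of all tested genes) and 9 that did not pass. The 2 that rose were Smurf1, a ubiquitin ligase that works with Smad7, from 10.6 ± 1.96 to 17.5 ± 1.67 FPKM (log2 0.71, limma adjusted p = 0.0309), and Tgif1, a nuclear corepressor of Smads, from 8.55 ± 0.530 to 15.9 ± 4.28 FPKM (log2 0.82, limma adjusted p = 0.0328). Over 19 alternatives Smurf1 did not pass in 7 and Tgif1 in 8, with log2 fold changes of 0.59 to 0.81 and 0.67 to 0.95.

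Of 22 tested genes that TGF-beta can induce, 7 rose and 2 fell, beside 484 higher and 309 lower of all 13863 tested genes. Many of the 22 genes also answer to other signals. The immediate early gene Junb measured 35.5, 36.01, 40.6 and 54.8 FPKM in NC and 310.0, 323, 279 and 314 FPKM at 0 h p.r. Its 7.37-fold rise (log2 2.88, standard error 0.15, limma adjusted p = 9.7e-05) was the largest in the 6 lists, followed by the clock-linked repressor Bhlhe40 at 4.75-fold (log2 2.25, limma adjusted p = 0.000947). Klf10, an early TGF-beta inducible zinc finger factor, rose by 0.79 on the log2 scale (limma adjusted p = 0.0309), and Snai1, a repressor of epithelial genes, by 0.94 (adjusted p = 0.0309). The cell cycle inhibitor Cdkn1a rose by 1.11 (limma adjusted p = 0.0233) and the metalloproteinase inhibitor Timp1 by 1.195 (adjusted p = 0.0320). Of 19 alternatives, Klf10 did not pass in 7, Snai1 in 8, Cdkn1a in 6 and Timp1 in 5, without a change of direction. Junb and Bhlhe40 passed in all 19.

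The 2 targets that fell were Snai2, a relative of Snai1, with a log2 fold change of -1.48 (limma adjusted p = 0.0190), and Postn, which encodes the matricellular protein periostin, with -1.28 (adjusted p = 0.0162). Postn went from 77.7 ± 16.1 to 32.0 ± 9.49 FPKM (SD, n = 4), and every runner lay below every NC tendon. Snai2 did not pass in 4 of 19 alternatives and Postn in 3. The other 13 targets tested did not pass, the collagen genes Col1a1, Col1a2 and Col3a1 among them. In the activin branch, which signals through the same Smad2 and Smad3, 1 of 10 genes fell and 0 rose. That is 10% of the branch, beside 5.72% of all 13863 tested genes in either direction, 309 of them lower. Acvr1c, the type I receptor ALK7 known from fat cells, measured 7.77, 3.595, 4.59 and 4.92 FPKM in NC and 0.646, 1.48, 1.08 and 1.51 FPKM at 0 h p.r. The groups were far apart (log2 fold change -1.76, standard error 0.26, limma adjusted p = 0.00740), beside the fall in 6 of 8 adipocyte markers given above, and their part in this fall was not tested.

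**Figure D5:**
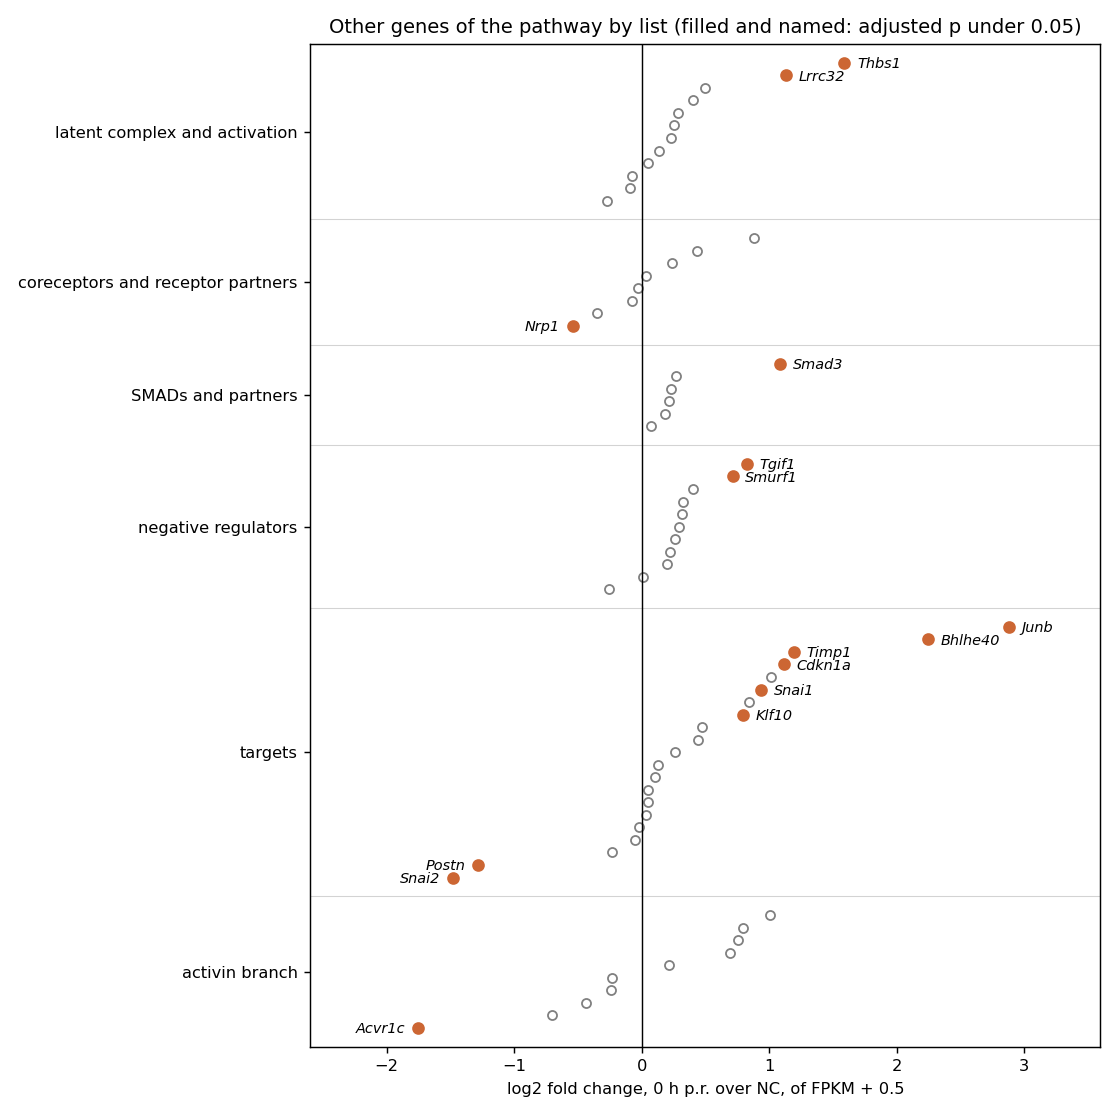
Log2 fold change of 0 h p.r. over NC for 68 of the 69 tested genes of the 6 pathway lists. Filled and named points are the 15 plotted genes with a limma adjusted p under 0.05, from Acvr1c at -1.76 to Junb at 2.88.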

How the data were processed

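Polyadenylated RNA of 8 tendons was sequenced as stranded libraries. Per the submitters' processing notes and methods, the authors aligned reads to Rnor_6.0 with HISAT2 2.1.0, counted them with featureCounts 1.6.3 and normalised with DESeq2 1.30.1. The deposited table holds FPKM per gene and library, scaled by the authors between libraries. It also holds the authors' fold changes and p-values, which were not used.

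All 15590 genes gave whole reads, within 0.001 reads plus a relative 1e-07 (for 32 genes, 0.003 reads plus 1e-08), which set the depths above. Genes that reached 0.5 FPKM in 4 or more libraries were tested in limma 3.58.1 (R 4.3.3) on log2(FPKM + 0.5), trend on, two-sided, NC against 0 h p.r. without covariates, Benjamini-Hochberg adjusted over all tested genes. Fold changes are on that scale and understate low genes. Log2 ratios of members used an exact two-sided permutation test over 70 assignments, adjusted over 8 ratios. The 4 libraries of a group are labelled as replicates, with no source saying that they came from separate litters or days, and within a group no pair agreed within counting noise (chi-square per gene of at least 27.2).

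The members, gene lists and tests were chosen with earlier results of these data known. Named genes were the 10 members, the genes of each list with an adjusted p under 0.05, and the 2 genes nearest to a member that passed. Named outside this rule were the collagen genes Col1a1, Col1a2 and Col3a1, the neutrophil markers S100a9 and Mpo, and the genes under other observations. One gene of the lists enters the counts and is not reported here. Each marker list was described by its count and summed FPKM, and endothelium, macrophage, mural, erythroid and Schwann lists overlapped between groups in mean log2 level. Alternatives covered pseudocounts of 0.1 and 1, filters, 2 other normalisations, array weights, a replicate block, voom on recovered reads, protein-coding genes and each library left out. The 19 counted per gene also include the fit without both NC replicate 2 and 0 h p.r. replicate 1, added after seeing the data.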

Additional observations from a re-analysis of the deposited data

Results flagged for a closer look

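Among 68 groups of 4 values, 7 held a library that stood apart from the other 3 by Dixon's criterion, which chance alone meets in about 1 of 20 groups. Smad7 was 4.70 FPKM in NC replicate 2 (others 7.50 to 7.99) and 16.2 FPKM in 0 h p.r. replicate 4 (others 10.3 to 10.9). Tgfbr3 was 54.0 FPKM in 0 h p.r. replicate 2 (others 45.1 to 46.3), and the log2 ratio of Tgfbr3 to Tgfbr2 was -0.83 in 0 h p.r. replicate 1 (others -0.56 to -0.52). Nrp1 was 28.1 FPKM in NC replicate 2 (others 37.6 to 39.5), the library with the highest mitochondrial share. Cdkn1a was 75.5 FPKM in 0 h p.r. replicate 3 (others 129 to 134), and Timp1 was 109.9 FPKM in 0 h p.r. replicate 1 (others 202 to 215), the library richest in muscle markers. Whether these shares bear on the values was not tested.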

How the results depend on the processing

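Over 19 alternatives, the log2 fold changes of Tgfb1, Tgfbr1, Tgfbr2, Tgfbr3, Ltbp1, Ltbp2, Smad7 and Skil kept their direction, and Skil passed in 13. Their size was less steady for some genes. With 1 library left out it ran from -0.349 to -0.0678 for Tgfbr3, from -0.174 to -0.0294 for Ltbp1 and from -0.761 to -0.255 for Ltbp2. The members past an adjusted p of 0.05 (1 gene) were 0 to 4 across alternatives. They were 4 with array weights (Skil, Tgfb1 at 0.0287, Tgfbr2 at 0.0297 and Smad7 at 0.0403), where all genes numbered 2069 against 793. With the replicate block, the log2 fold change of Skil stayed at 1.26 and its adjusted p was 0.0667, so 0 members passed, and 235 genes passed the adjusted p, 212 both thresholds and 4 of the pathway lists. Libraries with the same number came from different animals, with same-number correlations of -0.14 to 0.07 and 0 of 4 best with their own. The labels do not say what else a number stands for, such as a session or batch, so the block is given as a check. A test against a fold of 1.5 called 0 members and 60 genes. Without 0 h p.r. replicate 1 and NC replicate 2, 0 members passed, with 374 genes by adjusted p, 209 by both and 9 pathway genes, a setting added after seeing the data. Leaving out 1 library kept Skil past a fold of 2 in all 8 fits and gave 0 to 1 members past the adjusted p, 195 to 516 genes past both, 251 to 1178 past the adjusted p, and 6 to 19 pathway genes. With 1 library left out, the log2 difference ran from -0.0931 to 0.0636 for Tgfb2, from -0.119 to 0.0625 for Tgfb3 and from -0.143 to 0.120 for the Tgfb2 to Tgfb3 ratio, crossing 0; over all alternatives the first 2 spanned -0.111 to 0.0636 and -0.158 to 0.0625. Each group had 4 libraries, and the lowest read count for Skil was 123 in NC replicate 2. The cause of these shifts was not tested.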

Other observations

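Acvr1b and Acvr2a, receptors of the activin branch outside the rule for named genes and picked after their values were seen, showed no overlap between groups without passing the test, as did Furin, Acvrl1, Tgif2 and Fst of the tested list genes. Counting genes that passed as well, 15 of the 69 tested list genes were higher and 7 lower without overlap. Over all tested genes, 8.15% were higher and 7.47% lower by the same count. Acvr1b, the type I receptor ALK4, ranged from 4.605 to 5.94 FPKM in NC and from 6.50 to 13.03 FPKM at 0 h p.r. (log2 difference 0.70, limma adjusted p = 0.0767). Acvr2a, a type II receptor, ranged from 8.29 to 10.5 FPKM in NC and from 6.19 to 7.12 FPKM at 0 h p.r. (log2 difference -0.43, limma adjusted p = 0.0637). Fst, whose product follistatin binds and blocks activins, was chosen the same way and ranged from 45.1 to 73.9 FPKM in NC and from 24.4 to 40.8 FPKM at 0 h p.r. (log2 difference -0.70, limma adjusted p = 0.0825).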
